A study of Homo sapiens with 6 samples.

Results

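The genes described here encode the proteins of the cytosolic ribosome. They were found as the probe sets whose platform annotation names a single gene with a symbol that starts with RPL or RPS followed by a number, with RPLP, or with RPSA, leaving out pseudogenes and the RPS6K kinases. The pattern matched 92 gene symbols, of which 10 were RPS6K kinases and 5 were pseudogenes. RPL26L1-AS1, RPL34-DT and RPS19BP1, which carry a matching symbol but encode no ribosomal protein, were also left out. This left 74 genes of the 18132 measured by a probe set of their own, and 191 probe sets of 49293. They comprise 39 proteins of the large subunit, 23 of the small subunit, the stalk proteins RPLP1 and RPLP2, and 10 paralogs. A paralog here is a gene whose protein is related to, but need not be the same as, that of another ribosomal protein gene. RPS4Y1 and RPS4Y2 are counted among the paralogs and are not described singly. RPL17, RPL36A, RPS12 and RPS26 were measured only by probe sets that name a second gene or repeat a symbol, and are treated apart. RPLP0 and RPSA were not analysed here.

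The study used MDA-MB-231, an established human breast cancer cell line of mesenchymal, triple-negative type, grown in DMEM/F12 medium with fetal bovine serum. Cells received SAHA (vorinostat, a hydroxamate inhibitor of zinc-dependent histone deacetylases) at 5 µM or DMSO, its solvent, for 8 hours. Total RNA of 3 SAHA samples and 3 DMSO samples was hybridized to 3′ expression arrays, 1 array per sample. All 6 samples are of the same cell line, with no other treatment named. The labels do not say whether the replicates were separate cultures, so a test over them covers only the spread between these samples. In RNA from a whole culture, fewer cells with a transcript and less of it per cell cannot be told apart.

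The deposited values are on the log2 scale after robust multi-array averaging (RMA), and ran from 2.33 to 14.33. A probe set is a group of probes summarised to a single value, and a gene is represented by its brightest probe set, taken as the highest average of all 6 arrays. Differences are SAHA minus DMSO on that log2 scale, with the standard error (SE) of a limma fit across all genes and n = 3 arrays per group. A gene is said to be called when its Benjamini-Hochberg adjusted p from that fit was under 0.05. The members were chosen by symbol and the outliers were chosen by their SAHA minus DMSO difference. Both were proposed with this contrast known, so single members are given as values with no p-value, and nothing is inferred from their counts of calls. A call named for a single member shows its place in those counts and is not a test of that member.

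Arrays of a group correlated at 0.997 to 0.998, and arrays of different groups at 0.969 to 0.970. Of the markers of the cell line, VIM (mean of 13.96 with DMSO), CD44, AXL, CAV1 and ZEB1 were well expressed, whereas SPARC was low at 5.84. The luminal markers ESR1 (5.98), PGR (3.29) and CDH1 (4.20) were low, and KRT8 (10.28), EPCAM (8.67), FOXA1 (7.55) and GATA3 (6.67) read higher. With SAHA, 4 of the 6 markers of the line (CAV1, CD44, AXL and ZEB1) and 3 of the 7 luminal markers (EPCAM, FOXA1 and GATA3) were called lower. Control measures moved with the groups, not all in 1 direction. For ACTB, the value toward the 3′ end minus that toward the 5′ end, which reflects RNA integrity, was 0.89 ± 0.16 (SD) with DMSO and 0.61 ± 0.06 with SAHA, and the same measure of GAPDH was 0.03 ± 0.02 and 0.06 ± 0.02. The 28S control read 9.63 ± 0.03 with DMSO and 9.43 ± 0.06 with SAHA, and the 18S control 11.99 ± 0.16 and 11.81 ± 0.04. For each of these 4 the two-sided exact permutation p was 0.1, the smallest possible with n = 3 per group. The poly-A spike-ins, added to the RNA before labelling, averaged 6.83 ± 0.13 and 6.65 ± 0.08 (exact permutation p = 0.2), and the hybridization spike-ins 10.48 in both groups. Their part in the results was not tested.

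Each ribosome carries a large and a small subunit, and nearly every protein in them is made from a single active gene at closely matched amounts. The messages are among the most abundant in growing cells. Most of them begin with a C followed by a run of pyrimidines, the 5′ terminal oligopyrimidine (TOP) tract, through which LARP1 and the mTOR pathway set their translation and stability.

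The bases around the annotated start are shown for some of the outliers and of the members whose probe sets differed widely. No ordinary member is shown, so the windows allow no comparison with ordinary members. Each window holds 10 bases before the RefSeq start and 20 from it, 5′ to 3′ on the gene's own strand, in GRCh38.p14. Capitals mark a TOP-type run, defined as a C at the start base followed by an unbroken run of C or T to a length of at least 5. The first is RPL27A, the member with the largest fall, at chr11:8682782-8682811 on the plus strand.
RPL27A: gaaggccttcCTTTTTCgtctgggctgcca
RPL13, another outlier, lies at chr16:89560672-89560701 on the plus strand.
RPL13: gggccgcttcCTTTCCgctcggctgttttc
RPL37A and RPS3A, among the 5 members whose probe sets differed by more than 1 log2 unit, lie at chr2:216498834-216498863 and chr4:151099618-151099647, on the plus strand.
RPL37A: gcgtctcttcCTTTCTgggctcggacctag
RPS3A: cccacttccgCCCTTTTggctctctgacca
RPL22L1, a paralog with a run, lies at chr3:170870176-170870205 on the minus strand.
RPL22L1: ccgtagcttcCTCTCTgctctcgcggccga
The paralogs RPL7L1 and RPL26L1 (chr6:42879606-42879635 and chr5:172958719-172958748, plus strand) and RPS27L (chr15:63157458-63157487, minus strand) had no such run at the annotated start.
RPL7L1: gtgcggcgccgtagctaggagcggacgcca
RPL26L1: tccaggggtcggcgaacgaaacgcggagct
RPS27L: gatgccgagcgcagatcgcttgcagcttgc

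Of the 74 members, 62 had an entry in the RefSeq promoter table, and 43 of these (69.4%) had a run. Among other protein-coding genes the run was found in 945 of 15781 (5.99%). It was present in 24 of 32 large subunit proteins, 15 of 20 small subunit proteins, both stalk proteins and 2 of 8 paralogs. RPS4X, whose probe sets also differed widely and whose window is not shown, was among the small subunit proteins without a run. Only the letters at the annotated start were searched, on the gene's own strand, so a run at another start site would be missed. The median difference was -0.10 over the 43 members with a run and -0.09 over the 19 without.

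The ribosomal proteins as a group lay slightly lower with SAHA on the deposited scale, with a median difference of -0.10 (quartiles -0.15 and -0.06) against -0.01 over all genes, whereas centring the arrays on the poly-A spike-ins turned their median to 0.08 and that of all genes to 0.17. Centring adds the same amount to every gene, so the gap of -0.09 between the members and all genes is the same on both scales by construction. After a second quantile normalization, which can change the gap, the medians were -0.08 for the members and -0.02 for all genes. On the deposited scale 66 of 74 members were below 0 (89.2%, against 51.2% of all genes). The 3 SAHA arrays gave member medians of -0.09, -0.10 and -0.10 relative to the DMSO mean, and the 3 DMSO arrays lay between 0.00 and 0.01, so the groups did not overlap. In 57 members every SAHA array was below every DMSO array, and in 2 (RPS27L and RPL36AL) every SAHA array was above. Over all genes these shares were 27.5% and 28%. Separation of the groups varied with signal level and did not rise steadily with it. Among probe sets of other genes it was found, in either direction, in 21.9% below 5, 85.1% at 9 to 12 and 66.5% at 13 or more. At a mean of 12 or more it was found, in either direction, in 80.95% of members and 75.14% of other genes.

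Of the 74 members, 19 were called lower and 1 higher by limma, which is 25.7% and 1.35% of them. Over all 18132 genes, 23.8% were called lower and 24.6% higher. The count of lower calls rested on settings. It was 2 after centring on the poly-A spike-ins (13.3% of all genes), 54 with trended and robust moderation of the variance (24.9% of all genes), and 7 with the ACTB difference as a covariate (17.5% of all genes). Leaving out DMSO replicate 1, DMSO replicate 2, SAHA replicate 2 or SAHA replicate 3 gave 12 in each case, with 21.8% to 22.9% of all genes called lower.

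**Figure D1:**
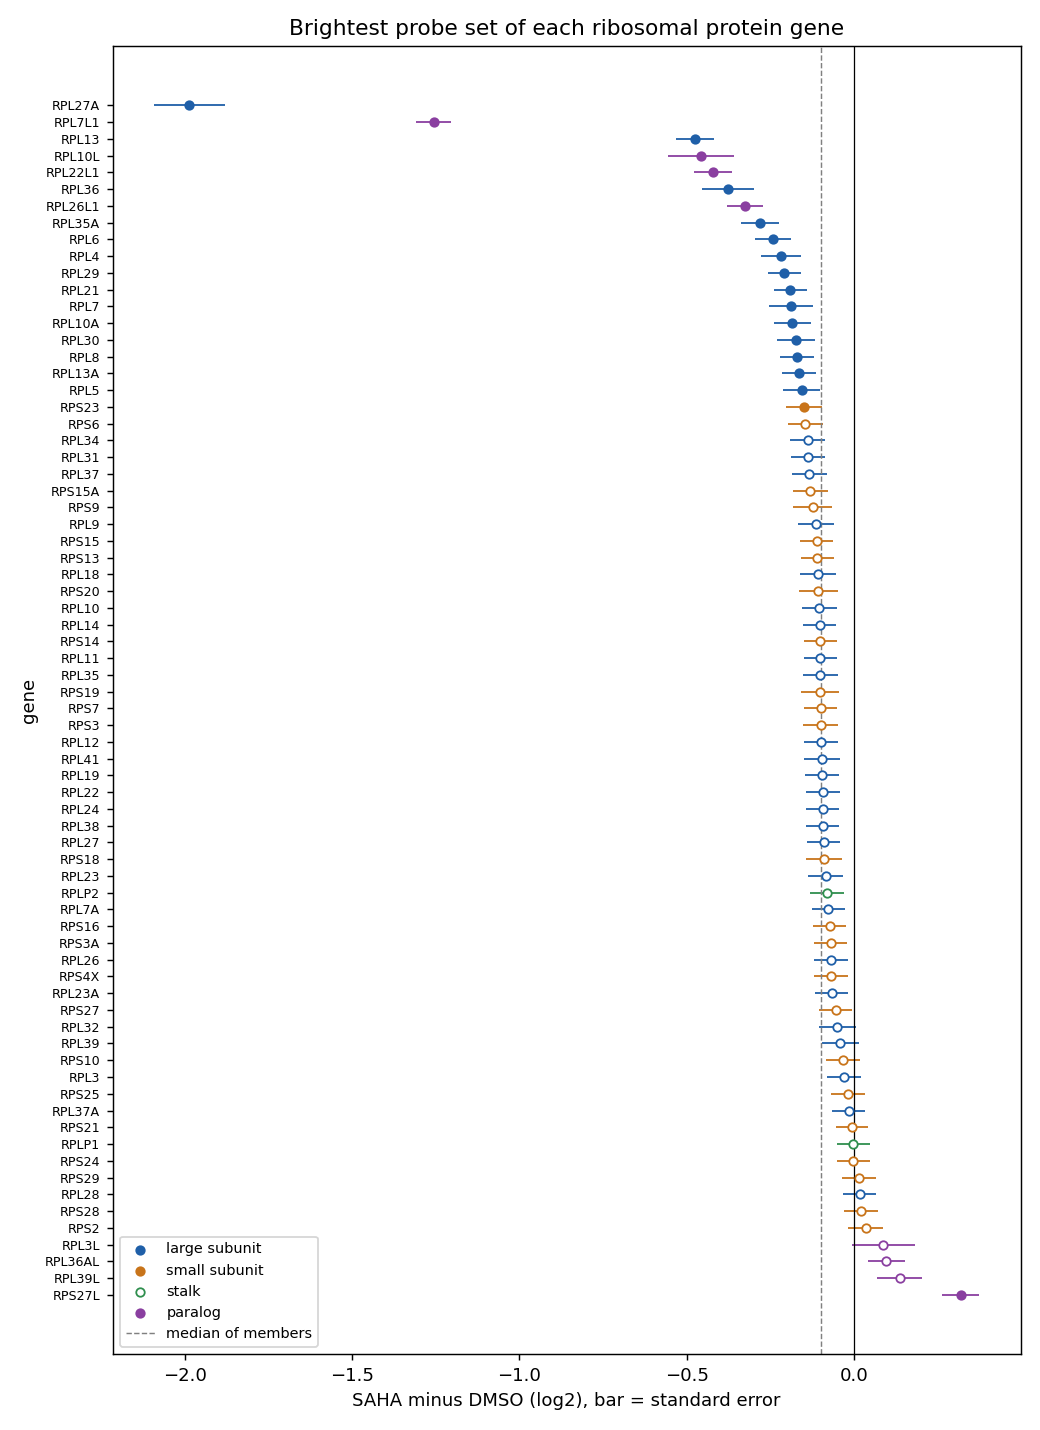
SAHA minus DMSO difference on the log2 scale (horizontal axis) for each ribosomal protein gene except RPS4Y1 and RPS4Y2 (vertical axis, ordered by the difference), with bars of 1 SE from the limma fit and n = 3 arrays per group. Filled points were called and open points were not; most genes lie near the median of -0.10, with RPL27A at -1.99 and RPS27L at 0.32 at the ends, and centring on the poly-A spike-ins would move every point up by 0.18.

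Most members were measured in the brightest range of the array. The brightest probe set had a mean of 12 or more in 63 of 74 members, against 2.26% of all genes. In the 63 members at 12 or more, 12 were called lower and 1 higher, with a median difference of -0.10. The 346 other genes at that level had 98 lower calls (28.3%), 80 higher calls (23.1%) and a median of -0.02. The 11 members below 12 had 7 lower calls (63.6%) and a median of -0.33, against 23.7% and -0.01 over the other genes below 12. They were RPL27A, RPL36, RPL35A and 8 of the 10 paralogs.

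Of the 39 proteins of the large subunit, 14 were called lower (35.9%, against 23.8% of all genes), out of 19 lower calls among the members. Their median difference was -0.10, and 38 were below 0 (97.4%, against 51.2% of all genes). RPL27A, RPL13, RPL36 and RPL35A were the lowest and are described with the outliers. The next was RPL6, at 13.54, 13.50 and 13.49 with DMSO and 13.27, 13.23 and 13.32 with SAHA, a difference of -0.24 ± 0.05 (SE). Its groups did not overlap. RPL4, which reaches into the exit tunnel of the ribosome, stood at 13.43, 13.30 and 13.34 with DMSO and 13.12, 13.09 and 13.20 with SAHA, a difference of -0.22 ± 0.06. RPL5, which carries the 5S RNA and binds MDM2 when ribosome assembly stalls, stood at 13.24, 13.16 and 13.18 with DMSO and 12.98, 13.06 and 13.06 with SAHA, a difference of -0.16 ± 0.06. Its groups were also separate. RPL3, at the peptidyl transferase centre, stood at 13.13, 13.15 and 13.20 with DMSO and 13.13, 13.14 and 13.13 with SAHA, so the groups overlapped. The remaining lower calls were RPL7, RPL8, RPL10A, RPL13A, RPL21, RPL29 and RPL30, with differences from -0.21 to -0.16.

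The proteins of the small subunit lay close together. Their 23 differences ran from -0.15 to 0.04, with a median of -0.09, and 20 were below 0 (87.0%, against 51.2% of all genes). RPS23, part of the decoding centre, was the single lower call (4.35%, against 23.8% of all genes). It read 13.82, 13.83 and 13.87 with DMSO and 13.69, 13.73 and 13.65 with SAHA (-0.15 ± 0.05). The call lay at the edge of the threshold, and the fit over probe sets did not call the same probe set. No small subunit protein was called lower after a second quantile normalization or after centring on the hybridization spike-ins. Its groups did not overlap in this probe set. A further probe set of RPS23, shared with similar transcripts, was called higher in the fit over probe sets, at 9.74, 9.74 and 9.70 with DMSO and 10.06, 9.93 and 9.97 with SAHA. RPS6, the protein that the S6 kinases phosphorylate, stood at 13.35, 13.44 and 13.36 with DMSO and 13.23, 13.26 and 13.22 with SAHA, a difference of -0.14 ± 0.05 that was not called. RPS2 stood at 13.95, 13.97 and 13.91 with DMSO and 14, 13.94 and 14.01 with SAHA, with overlapping groups. It was the highest of the small subunit proteins, at 0.04 ± 0.05.

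The stalk recruits the elongation factors to the ribosome. RPLP1 stood at 13.89, 13.90 and 13.91 with DMSO and at 13.91, 13.91 and 13.87 with SAHA, 99.9% of the DMSO level, and its groups overlapped. RPLP2 stood at 13.70, 13.72 and 13.74 with DMSO and 13.65, 13.65 and 13.62 with SAHA, a difference of -0.08 ± 0.05 that was not called.

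Outliers were taken as members whose difference lay more than 3 scaled median absolute deviations from the members' median, which set bounds of -0.31 and 0.11. The bounds are narrow because most members differed little from each other. Over all genes the quartiles were -0.20 and 0.21, so the upper bound lay inside them, and an outlier is unusual only among the members. There were 9, of which 7 lay below and 2 above. Just past the lower bound was RPL26L1 at -0.33 and just short of it RPL35A at -0.28. Just past the upper bound was RPL39L at 0.14 and just short of it RPL36AL at 0.10.

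RPL27A, a large subunit protein, stood furthest from the others. Its single probe set read 6.28, 6.18 and 6.10 with DMSO and 4.43, 4.09 and 4.07 with SAHA. The difference was -1.99 ± 0.11, with no overlap between the groups. The probe set is a dim one, and its SAHA values lie near the floor of the array, so the size of the fall is not fixed by these data and no fold is given. Its DMSO mean was above that of 50.01% of all probe sets, and its SAHA mean above that of 22.4%. Centring on the poly-A spike-ins gave -1.80. A further pair of probe sets names RPL27A together with SNORA3A, a small nucleolar RNA. The first read 6.89, 6.97 and 7.42 with DMSO and 6.46, 6.56 and 6.53 with SAHA, a difference of -0.58 ± 0.13. The second read 6.50, 6.60 and 7.20 with DMSO and 6.19, 6.15 and 6.15 with SAHA, a difference of -0.60 ± 0.17. Both were lower with SAHA on every array, by less than the probe set that names RPL27A alone, and none of the 3 probe sets was in the bright range of most members.

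RPL7L1, a paralog of RPL7 that acts in ribosome assembly, had the other fall of more than 1 log2 unit. It read 11.69, 11.73 and 11.71 with DMSO and 10.48, 10.41 and 10.48 with SAHA, a difference of -1.26 ± 0.05. All 7 of its probe sets were called lower, with differences from -1.26 to -0.58. All except the dimmest are of the types shared with similar transcripts, and they are not independent of each other. The dimmest, near the floor, read 4.59, 4.74 and 4.56 with DMSO and 4.17, 3.98 and 4 with SAHA, a difference of -0.58 ± 0.08. RPL7 read 12.46, 12.40 and 12.43 with DMSO and 12.14, 12.33 and 12.25 with SAHA, a difference of -0.19 ± 0.06. Over all genes, 4.47% had a difference of -1 or below, and RPL27A and RPL7L1 were the 2 members that did.

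RPL13 read 12.39, 12.47 and 12.46 with DMSO and 12.02, 11.95 and 11.92 with SAHA, a difference of -0.47 ± 0.06 in a probe set shared with similar transcripts. The groups were separate there. A brighter probe set that names RPL13 with the pseudogene RPL13P12 read 13.88, 13.96 and 13.92 with DMSO and 13.87, 13.90 and 13.83 with SAHA, a difference of -0.05 with overlapping groups. RPL36 read 12.04, 12 and 12.20 with DMSO and 11.81, 11.64 and 11.65 with SAHA, a difference of -0.38 ± 0.08, also in a shared probe set. All its SAHA arrays lay below all its DMSO arrays. RPL35A, just short of the bound, read 11.76, 11.83 and 11.87 with DMSO and 11.54, 11.57 and 11.50 with SAHA. A brighter probe set that names RPL35A with ZNF391 read 13.72, 13.70 and 13.73 with DMSO and 13.64, 13.57 and 13.60 with SAHA. Its difference of -0.11 ± 0.06 was near the members' median and was not called.

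The paralogs held 6 of the 9 outliers. RPL22L1, which can take the place of RPL22, read 11.93, 11.88 and 11.97 with DMSO and 11.51, 11.55 and 11.46 with SAHA, a difference of -0.42 ± 0.06. RPL22 read 13.75, 13.80 and 13.80 with DMSO and 13.71, 13.70 and 13.66 with SAHA, a difference of -0.09 ± 0.05. Neither pair of groups overlapped, and the paralog had the larger difference. RPL26L1 read 11.64, 11.66 and 11.68 with DMSO and 11.38, 11.29 and 11.34 with SAHA. The difference was -0.33 ± 0.05, in a probe set shared with similar transcripts. Its partner RPL26 differed by -0.07 ± 0.05 and was not called. RPL10L, known for its role in the testis, was dim, at 5.27, 4.97 and 4.95 with DMSO and 4.61, 4.70 and 4.51 with SAHA (-0.46 ± 0.10).

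The members on the upper side were also paralogs. RPS27L, a p53-responsive paralog of RPS27, read 12.24, 12.31 and 12.19 with DMSO and 12.57, 12.54 and 12.58 with SAHA. The difference of 0.32 ± 0.06, with no overlap, was the highest of all members and the single higher call. Its other probe set was near the floor and read -0.10. RPS27 differed by -0.05 ± 0.05. RPL39L, a paralog of RPL39, read 9.47, 9.37 and 9.35 with DMSO and 9.61, 9.44 and 9.54 with SAHA, a difference of 0.14 ± 0.07 with overlapping groups that was not called. RPL36AL differed by 0.10 ± 0.06 and RPL3L, a muscle paralog read near the floor, by 0.09 ± 0.09, and neither was called. After centring on the poly-A spike-ins, RPS27L was at 0.50, RPL39L at 0.32, RPL36AL at 0.28 and RPL3L at 0.27. On that scale RPL27A was at -1.80 and RPL7L1 at -1.07.

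**Figure D2:**
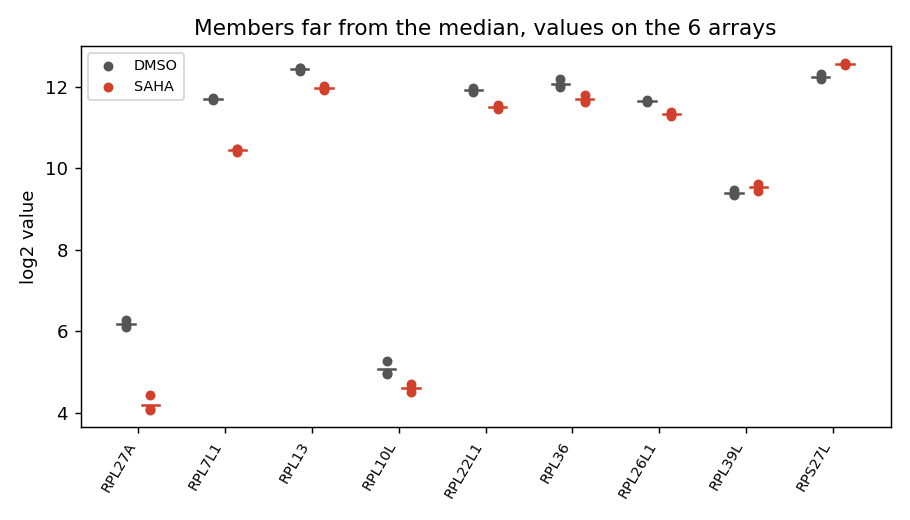
Log2 value on each of the 6 arrays for the 9 outlying members, DMSO and SAHA arrays side by side, with 1 point per array and a line at each group's mean. RPL27A drops from values between 6.10 and 6.28 to values between 4.07 and 4.43, RPL7L1 drops by more than 1 log2 unit, and RPS27L is higher on every SAHA array.

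The level of a probe set and its difference went together among the members. The 92 member probe sets at a mean of 13 or more had a median difference of -0.10, and 11 were called lower (12%, against 11.2% of the probe sets of other genes at that level). The 20 at 12 to 13 had a median of -0.14 and 6 lower calls (30%, against 31.2%). Below 12 the members' values were lower. The 25 at 9 to 12 had a median of -0.39 and 20 lower calls (80.0%, against 41.5%). The 15 at 7 to 9 had a median of -0.50 and 11 lower calls (73.3%, against 39.3%), and the 22 at 5 to 7 had -0.36 and 13 (59.1%, against 22.2%). The 17 below 5 had a median of -0.10 and 3 lower calls (17.6%, against 6.97%). The probe sets of other genes had medians between -0.07 and 0.01 in all 6 ranges. After centring on the poly-A spike-ins the members' medians were still below 0 at 5 to 7 (-0.17), 7 to 9 (-0.32) and 9 to 12 (-0.21), and were above 0 elsewhere. Over all 191 member probe sets, 64 were called lower and 4 higher, beside 24.1% and 22.2% of all probe sets. These are counts of probe sets, and several can belong to 1 gene, so they are not independent. RPL7L1 alone had 7 probe sets, all called lower and most of them at 9 to 12. RPL37A had 6, of which 5 were called lower. The part of signal level in the differences was not tested.

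**Figure D3:**
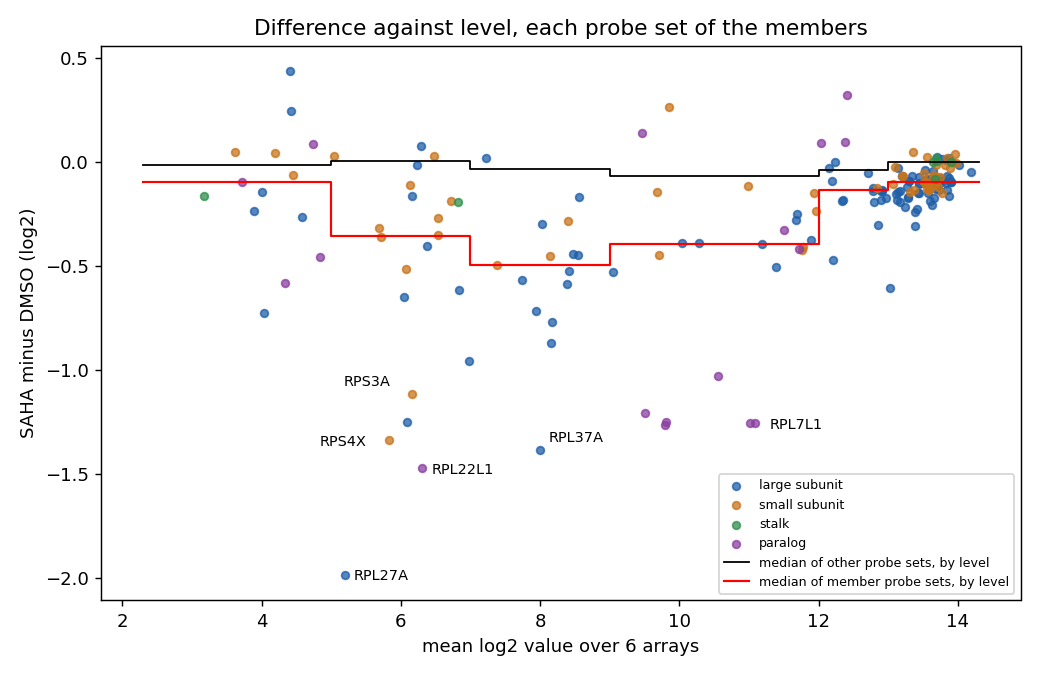
SAHA minus DMSO difference (log2, vertical axis) against the mean log2 value over the 6 arrays (horizontal axis), 1 point per member probe set except those of RPS4Y1 and RPS4Y2, coloured by subunit, with step lines at the median of the members and of all other probe sets in each level range. The members' line lies at -0.10 at 13 or more, drops to between -0.50 and -0.36 from 5 to 12, and returns to -0.10 below 5; centring on the poly-A spike-ins would move every point up by 0.18.

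The same pattern was seen within single genes, where centring changes nothing because it adds the same amount to every probe set. In 21 members the brightest probe set was at 12 or more and at least 1 other was at 5 to 9. In 17 of these 21 genes (81.0%) the dim probe sets had the lower difference. The median was -0.07 over the bright and -0.35 over the dim probe sets, with a median gap of -0.26. Of 84 other genes with such a pair of levels, 61 (72.6%) had the lower difference in the dim probe sets, with medians of -0.04 and -0.16 and a gap of -0.13.

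RPL37A, a zinc-binding protein of the large subunit, showed the widest spread. Its brightest probe set read 14.03, 14.03 and 14.03 with DMSO and 14.01, 14.02 and 14.01 with SAHA, a difference of -0.02 ± 0.05. Another read 8.56, 8.61 and 8.87 with DMSO and 7.33, 7.18 and 7.38 with SAHA, a difference of -1.38 ± 0.10. The 5 dimmer probe sets were all called lower and the brightest was not. RPS4X, a small subunit protein, read 13.25, 13.25 and 13.21 with DMSO and 13.17, 13.15 and 13.19 with SAHA in its brightest probe set. Its dim probe set read 6.33, 6.62 and 6.54 with DMSO and 5.09, 5.10 and 5.29 with SAHA, a difference of -1.34 ± 0.10 against -0.07 in the bright one. RPS3A, also of the small subunit, differed by -0.07 in its bright probe set. Its dim probe set read 6.71, 6.93 and 6.51 with DMSO and 5.79, 5.58 and 5.45 with SAHA, a difference of -1.11 ± 0.12. In all 3 genes the bright and dim probe sets gave different answers about the size of the change.

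RPL22L1, an outlier already in its brightest probe set, fell further in its second, from 7.10, 6.89 and 7.14 with DMSO to 5.85, 5.53 and 5.33 with SAHA (-1.47 ± 0.13). RPL10, which joins the large subunit late in its assembly, differed by -0.10 ± 0.05 in its brightest probe set. A dim probe set of RPL10 read 8.30, 8.55 and 8.94 with DMSO and 7.70, 7.66 and 7.82 with SAHA, a difference of -0.87 ± 0.15. Its dimmest read 4.43, 4.30 and 4.18 with DMSO and 4.55, 4.60 and 4.49 with SAHA and was called higher, at 0.24 ± 0.08. RPL10 was the 1 member called in both directions in the fit over probe sets.

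The spread between probe sets was smaller in other members. RPL32, a large subunit protein and a common reference gene, read 14.24, 14.23 and 14.17 with DMSO and 14.19, 14.12 and 14.19 with SAHA in its brightest probe set, with overlapping groups. A dim probe set of RPL32 read 8.57, 8.79 and 8.67 with DMSO and 8.18, 8.18 and 8.09 with SAHA, a difference of -0.52 ± 0.07. RPL31 differed by -0.14 ± 0.06 in its brightest probe set and by -0.72 ± 0.09 in one that read 8.44, 8.31 and 8.16 with DMSO and 7.68, 7.50 and 7.58 with SAHA. Both genes had the lower difference in the dim probe set. RPL14 went the other way: its 4 bright probe sets ran from -0.14 to -0.08, and a probe set near the floor read 4.05, 4.13 and 4.37 with DMSO and 4.85, 4.46 and 4.56 with SAHA, at 0.44 ± 0.12. RPL13A, named in the interferon-activated silencing complex, had a large difference at a high level. Its brightest probe set read 13.97, 13.93 and 13.98 with DMSO and 13.82, 13.79 and 13.78 with SAHA, a difference of -0.16 ± 0.05, and another read 13.30, 13.35 and 13.35 with DMSO and 12.76, 12.71 and 12.69 with SAHA, a difference of -0.61 ± 0.06. Low values were thus not confined to dim probe sets. These 4 genes were named after their values were seen.

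**Figure D4:**
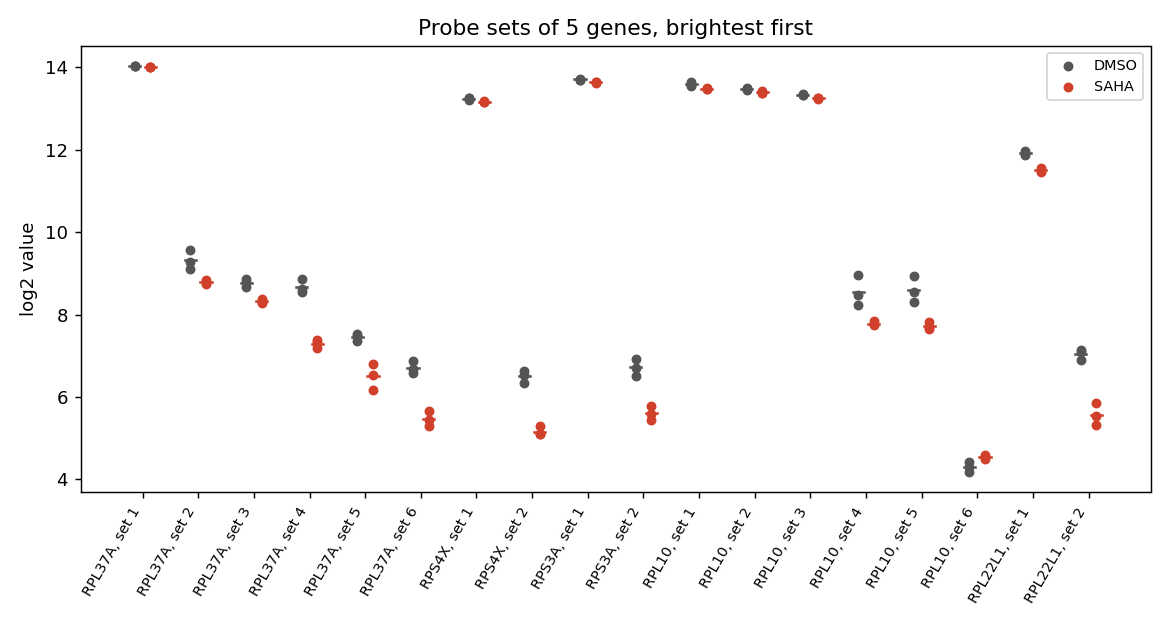
Log2 value on each array (vertical axis) for every probe set of the 5 members whose probe sets differ by more than 1 log2 unit in their difference, numbered from the brightest, with 1 point per array and a line at each group's mean. The bright probe sets of RPL37A, RPS4X, RPS3A and RPL10 are nearly level between the groups, while dimmer ones of the same genes drop with SAHA, and the dimmest of RPL10 is higher.

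Other genes of the translation apparatus were taken from lists written from textbook knowledge. Their counts stand beside 23.8% lower and 24.6% higher over all genes. Of the ribosomal proteins without an RPL or RPS symbol, 1 of 3 was measured by a probe set of its own: FAU, whose product yields RPS30, differed by -0.02 ± 0.05 and was not called. Of 13 other genes with TOP messages, 6 (46.2%) fell, with a median of -0.08 (1 lower and 1 higher, with a median of 0.10, after centring on the poly-A spike-ins). EIF4B, a cofactor of the EIF4A helicase, read 11.59, 11.57 and 11.59 with DMSO and 10.57, 10.52 and 10.37 with SAHA, a fall of 1.10 ± 0.06 on the log2 scale (-1.10). Its 5 probe sets were all called lower. EIF3E, an initiation factor subunit, differed by -0.40 ± 0.05, HNRNPA1 by -0.19 and NAP1L1 by -0.17. The elongation factors EEF1A1 and EEF2 were not called, at -0.04 ± 0.05 and -0.07 ± 0.05.

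Of 13 regulators of TOP messages and of S6 phosphorylation, 8 (61.5%) fell and 3 (23.1%) rose, with a median of -0.31 (5 and 5, with a median of -0.12, after centring on the poly-A spike-ins). LARP1, which binds the TOP tract, read 11.77, 11.76 and 11.68 with DMSO and 10.44, 10.31 and 10.30 with SAHA, a difference of -1.39 ± 0.06. CNBP, a nucleic acid binding protein that binds TOP messages, differed by -0.94 ± 0.05. RPTOR, the substrate-binding subunit of mTOR complex 1, differed by -0.82 ± 0.07 in its brightest probe set, and its 6 probe sets ran from -0.82 to -0.04. TIAL1, an RNA-binding protein of stress granules, differed by -0.73 ± 0.06. The 3 that rose, named after their values were seen, were the translation repressor EIF4EBP2 (0.68 ± 0.06) and the S6 kinases RPS6KB1 (0.65 ± 0.06) and RPS6KB2 (0.28 ± 0.05). EIF4EBP1, a repressor of the same family as EIF4EBP2, fell, at -0.24 ± 0.06.

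Of 8 host genes of small nucleolar RNAs with TOP messages, 5 were measured by a probe set of their own, and 4 fell (80.0%, against 23.8% of all genes), with a median of -0.27 (1 lower, with a median of -0.09, after centring on the poly-A spike-ins). SNHG8 differed by -0.51 ± 0.08, ZFAS1 by -0.32 ± 0.06, SNHG29 by -0.27 ± 0.05 and SNHG12 by -0.19 ± 0.06. Of 11 dedicated partners, which chaperone a ribosomal protein or modify it, 8 (72.7%) fell and 2 (18.2%) rose, with a median of -0.60 (6 and 2, with a median of -0.41, after that centring). PDCD2, which escorts RPS2, read 10.04, 9.94 and 9.89 with DMSO and 8.62, 8.36 and 8.47 with SAHA, a difference of -1.47 ± 0.08. Its paralog PDCD2L differed by -1.07 ± 0.06. PRMT3, the arginine methyltransferase of RPS2, differed by -1.19 ± 0.05, and GRWD1, which escorts RPL3, by -1.24 ± 0.08. Their clients RPS2 and RPL3, given above, were not called. The 2 that rose, named after their values were seen, were AAMP (0.40 ± 0.06) and ZNF622 (0.40 ± 0.06).

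**Figure D5:**
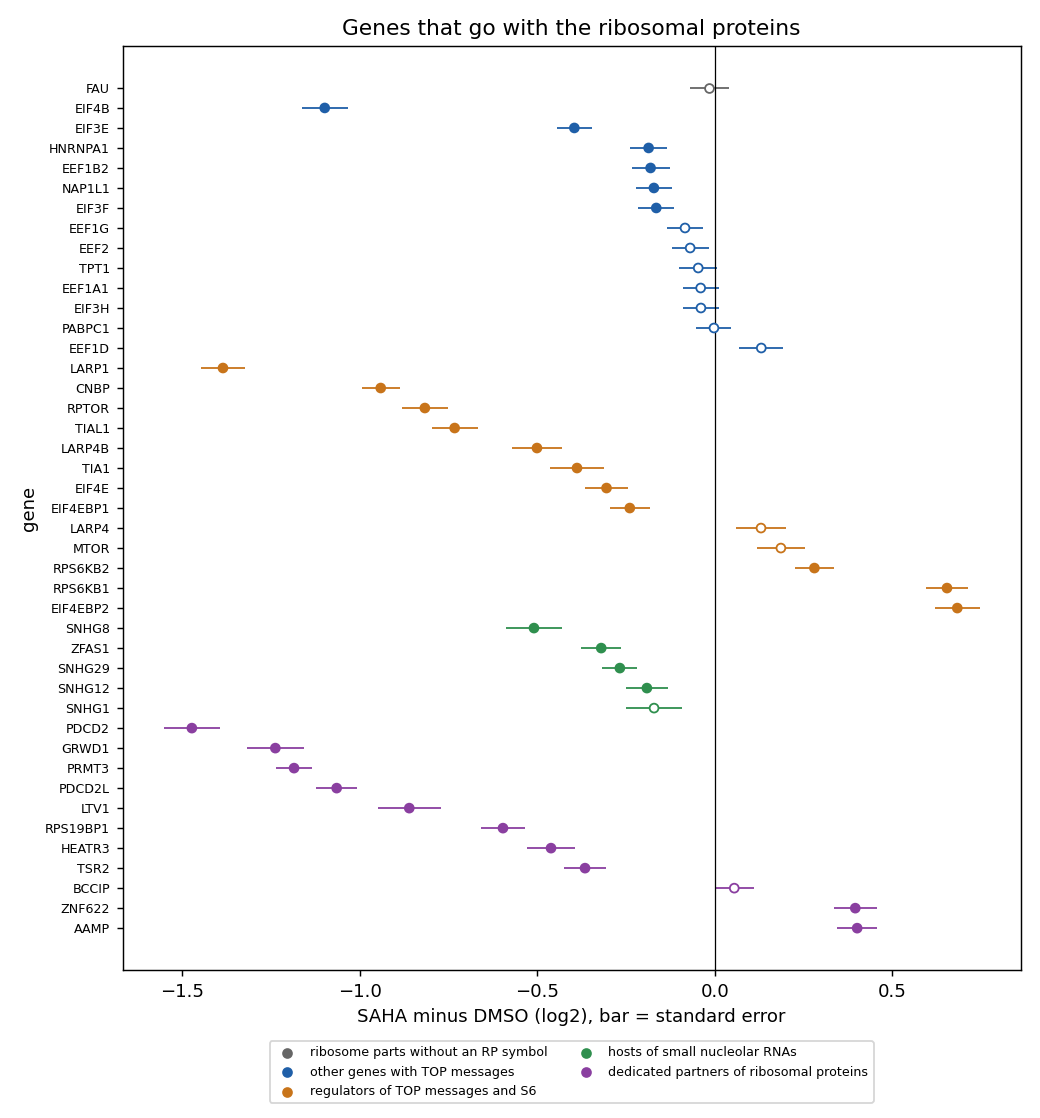
SAHA minus DMSO difference (log2, horizontal axis) of each gene of the accompanying lists (vertical axis) in its brightest probe set, with bars of 1 SE from the limma fit and n = 3 arrays per group. Filled points were called and open points were not; regulators run from -1.39 to 0.68 and dedicated partners from -1.47 to 0.40, and centring on the poly-A spike-ins would move every point up by 0.18.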

How the data were processed

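RNA of 6 samples was measured on Affymetrix 3′ expression arrays. The deposited table holds log2 values for 49395 probe sets, made by the authors with RMA per the submitters' processing notes. Which program ran RMA is not given in the sources used here. RMA forces the arrays to a common distribution, so a shift shared by most genes is removed. The 102 array controls were left out. Of the other probe sets, 44988 name 1 gene in the platform annotation, 1832 several and 2473 none.

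limma 3.58.1 in R 4.3.3 (lmFit, eBayes) compared 3 SAHA with 3 DMSO arrays over all 18132 genes, or all 49293 probe sets, two-sided, with Benjamini-Hochberg adjustment at 0.05; it was tested on simulated data. All 74 members were matched to RefSeq by Entrez ID. Named members were the outliers, the 6 lowest and 6 highest differences, genes whose probe sets differed by over 1 log2 unit, the paralogs and their partners, the stalk proteins and RPS6, and in each list the 4 genes with the smallest p. RPL4, RPL5, RPL6, RPL35A, RPS23, EIF4EBP1, EEF1A1 and EEF2 were named after their values were seen. Members and lists were chosen with earlier results of these data known. A ranking of members by their likeness to RPL27A over the arrays was not made, since the 6 arrays form 2 clusters. Alternatives changed the probe set rule, the scaling, the moderation, covariates and the arrays included.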

Additional observations from a re-analysis of the deposited data

How the results depend on the processing

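The 74 members had 19 lower and 1 higher call. Lower calls numbered 37 when each gene's probe sets were averaged, 30 (2 higher) at a mean of at least 7, 2 (2 higher) after centring on poly-A spike-ins, 54 (3 higher) with trend and robust moderation, 7 with the ACTB covariate, 10 at a threshold of 0.01, 64 (4 higher) over probe sets, and 12 to 14 leaving out 1 array. Higher calls were 0 with the mean of probe sets or the second brightest probe set, and 2 without shared probe sets or after a second quantile normalization. Replicate numbers did not pair the samples (correlations of -0.13, -0.07 and -0.04), and with the replicate block 11 were lower. The members' median was -0.13 with the mean of probe sets, -0.14 with the second brightest (54 members), -0.15 without shared probe sets (43 members), -0.081 after a second quantile normalization, 0.082 after poly-A centring, and -0.101 to -0.0966 leaving out 1 array. RPL27A was at -1.80 after poly-A centring, -1.78 with the ACTB covariate and -2.10 to -1.92 leaving out 1 array. Member probe sets (64 lower, 4 higher) had 26 lower of 64 without shared probe sets, 28 after poly-A centring, 133 with trend and robust moderation, 40 (2 higher) with the ACTB covariate, 2 higher at a mean of at least 5 or 7, and 49 to 58 lower and 2 to 3 higher leaving out 1 array. Over all genes, 2719 were higher with the second brightest probe set, 2412 lower after poly-A centring, and over probe sets 11901 lower and 10949 higher. The accompanying lists (26 lower, 5 higher) had 13 lower and 8 higher after poly-A centring, 8 higher with trend and robust moderation and 3 higher with the ACTB covariate. Of 428 values of the named members other than RPL27A, 76 moved by more than the spread between replicates, 24 changed sign (12 of them after poly-A centring), and 1 changed sign among members called in the main comparison, RPS27L at -0.10 in its second probe set. In alternatives chosen after seeing the data, leaving out probe sets at 12 or more gave a median of -0.31 with 25 lower and 2 higher calls over 42 members, and the RPL27A probe sets that name SNORA3A averaged -0.59. The causes were not tested.

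In the main fit the SE of a member was about 0.05, so differences of that size were not called gene by gene. That SE is moderated toward the variance of all genes, and it can exceed the spread between a member's own arrays. RPL11, with an SD of 0.007 in each group, had an SE of 0.049. With trend and robust moderation more members were called lower, so an open call does not mean that the arrays of a member overlapped. Many members lay near the top of the array's range, where the relation of signal to RNA amount was not tested, and 127 of the 191 probe sets are of the types that similar transcripts share.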

Other observations

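A further 38 probe sets name a ribosomal protein together with a second gene or repeat its symbol. Of these, 13 were called lower by limma (34.2%, against 24.1% of all probe sets), with a median difference of -0.14 and a range from -1.07 to 0.01. RPL17, read with C18orf32 or its readthrough gene, lay between -0.16 and -0.14 in 3 probe sets. RPS12, read with SNORA33, lay at -0.02 and -0.03. RPS26 was at -0.04 in a probe set at 13.33, 13.35 and 13.35 with DMSO, and at -0.58 ± 0.06 in one at 9.50, 9.49 and 9.53. RPL36A, read with a readthrough gene, was at -0.12. The 3 probe sets that repeat the symbol of RPL37 were at -1.07, -0.91 and -0.79, whereas the one that names RPL37 with SNORD72 read 14.09, 14.04 and 14.10 with DMSO and 13.89, 13.86 and 13.87 with SAHA, a difference of -0.20 ± 0.06.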
